A study of Mus musculus with 10 samples.

Results

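The 10 genes described here encode proteins that cover, cap, build and maintain the thin filaments of muscle. They are 4 tropomyosin genes (Tpm1, Tpm2, Tpm3 and Tpm4), the tropomodulin genes Tmod1 and Tmod4, the leiomodin genes Lmod2 and Lmod3, and the muscle kelch genes Klhl40 and Klhl41. They were listed by name and family, with earlier results of these data known, from the 54232 genes of a table of RNA-sequencing values, and all 10 were found there. The table covers 10 mice, 5 homozygous desmin knock-out mice (Des -/-) and 5 wild-type mice (Des wt/wt) of the strain B6J.129Sv-Destm1Cba/Cscl. Both groups were sampled from the gastrocnemius, a calf muscle of mostly fast fibers, which the study also describes as gastrocnemius with plantaris. Per the study's methods the mice were 3 months old and the wild-type mice were littermates. The knock-out is present in every cell from conception, so values at this age come after the whole of muscle development without desmin. The methods also say that RNA of the 5 muscles of a genotype was pooled, whereas the table has 10 separate columns, and every column stands for its own mouse here.

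Desmin is the intermediate filament protein that links neighbouring myofibrils at the Z-disc and to the cell membrane. The thin filaments of the sarcomere are actin polymers with tropomyosin lying along their length, where it works with troponin to make contraction depend on calcium. Tropomodulins cap the slow-growing, pointed ends of these filaments, and leiomodins bind the same ends and help actin filaments to nucleate and lengthen. The kelch proteins KLHL40 and KLHL41 are adaptors of the CUL3 ubiquitin ligase that are known to keep nebulin stable. Loss of LMOD3, KLHL40 or KLHL41, and mutations of TPM2 and TPM3, are known causes of nemaline myopathy in people.

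The values are regularized logarithms (rlog values), read counts that the authors scaled for library size, put on a log2 scale and shrunken toward each gene's mean. Differences of weakly expressed genes are therefore understated. A value near 0 in a single mouse is not by itself an absence of reads, and the 26079 genes at 0 in every mouse were not tested. A difference below is the knock-out mean minus the wild-type mean, and a log2 difference of 1 is a 2-fold change on this scale. Differences were tested with limma over the 14289 genes whose mean reached log2(10), with Benjamini-Hochberg adjustment over all of them, and a gene is said to have risen or fallen only where the adjusted p was under 0.05. Des itself was at 11.76 to 11.89 in the 5 knock-out mice and at 16.10 to 17.74 in the 5 wild-type mice, a log2 difference of -4.73 ± 0.25 (SE, limma, adjusted p = 1.5e-07). Wild-type mouse 3 stood apart from the other mice. Summed on the linear scale, its values came to 1.48 times the median mouse, against 0.949 to 1.06 times for the others. It was the highest wild-type mouse for 5 of the 10 genes (Tpm1, Tpm2, Tpm3, Tmod4 and Klhl40) and the lowest for Lmod3, so differences are also given without it where they move. The depth of each library is unknown because no counts were used.

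Of the 10 genes, 3 passed the test: Lmod2 and Klhl41 rose and Tmod4 fell in the knock-out muscles. The shares of all tested genes that passed were 13.7% in either direction, 7.70% upward and 5.99% downward, and the list of 10 genes was not tested against these shares. These were also the 3 genes whose 5 knock-out values did not overlap the 5 wild-type values, which held for 14.4% of all tested genes, 7.45% with the knock-out mice above and 6.97% with them below. The median log2 difference of the 10 genes was 0.04, beside -0.0029 over all tested genes. The 3 genes that changed belong to 3 different families, and in each family the partner gene did not pass the test.

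**Figure D1:**
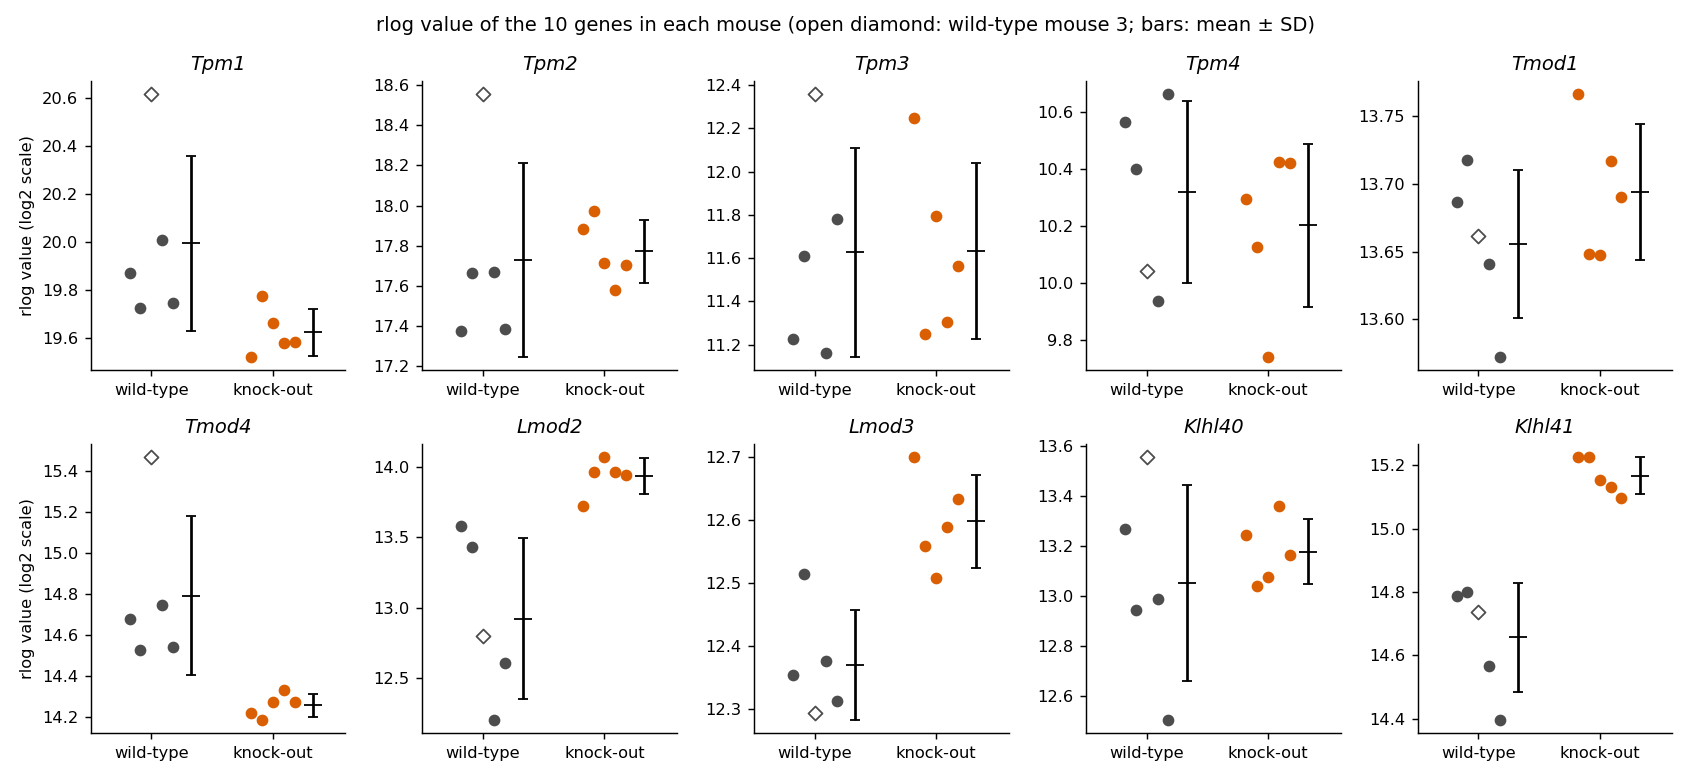
Each panel plots the rlog value (log2 scale, with an axis of its own that does not start at 0) of a gene in the 5 wild-type mice (grey, mouse 3 as an open diamond) and the 5 desmin knock-out mice (orange), with the mean ± SD as a bar. The genotypes do not overlap for Tmod4, Lmod2 and Klhl41, and mouse 3 lies far above the other wild-type mice for Tpm1, Tpm2 and Tmod4.

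The promoter sequences of the 2 genes that rose, Lmod2 and Klhl41, are shown for description only, and that of Tmod4 is not printed. The values come from reads counted per gene, so nothing was measured at these promoters. Each is the 250 bases before the start of the gene in RefSeq (build GRCm38.p6, plus strand), at chr6:24597521-24597770 for Lmod2, whose RefSeq start lies a few bases inside the GENCODE gene, and at chr2:69669870-69670119 for Klhl41. Capitals mark E-boxes (CANNTG, the letters bound by MyoD family factors, the same on both strands) and, in Klhl41, the MEF2 motif near the end.
Lmod2: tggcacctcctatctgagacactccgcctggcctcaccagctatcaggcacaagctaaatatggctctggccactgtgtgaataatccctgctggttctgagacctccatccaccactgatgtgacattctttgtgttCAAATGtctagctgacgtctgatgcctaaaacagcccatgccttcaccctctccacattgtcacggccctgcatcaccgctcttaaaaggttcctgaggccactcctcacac
Klhl41: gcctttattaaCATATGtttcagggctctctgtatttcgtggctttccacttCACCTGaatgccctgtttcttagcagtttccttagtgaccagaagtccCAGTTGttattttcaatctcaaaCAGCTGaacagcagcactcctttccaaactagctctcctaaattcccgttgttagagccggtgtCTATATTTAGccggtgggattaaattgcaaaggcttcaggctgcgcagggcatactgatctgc
The Lmod2 window holds 1 E-box, 112 bases before the start. The Klhl41 window holds 4, which begin 239, 198, 150 and 127 bases before the start, and a MEF2 motif that begins 63 bases before it and overlaps none of them. E-boxes are common, in 66.2% of all 32851 RefSeq windows of this length, while 2.92% hold a MEF2 motif. Windows were found for 9 of the 10 genes. Of these 9 genes, 7 have an E-box, 2 (Tpm1 and Tmod1) have the MCAT motif CATTCC on either strand, which 12.6% of all windows hold, and Klhl41 alone has a MEF2 motif. No window of the 9 genes holds a CArG box, the motif of serum response factor, which 1.47% of all windows hold. Klhl40, which did not pass the test, has 3 E-boxes in its window, and Tmod4, which fell, has 2. These matches describe letters only and were not tested as sites.

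Lmod2 (ENSMUSG00000029683, chr6:24597762-24605414, plus strand) encodes leiomodin-2, which is best known for setting thin filament length in the heart. Its rlog values were 13.72, 13.96, 14.07, 13.97 and 13.94 in knock-out mice 1 to 5 and 13.58, 13.43, 12.80, 12.21 and 12.61 in wild-type mice 1 to 5. All knock-out mice lay above all wild-type mice, and the wild-type mice were spread over more than a log2 unit while the knock-out mice lay close together. Lmod2 rose by a log2 difference of 1.01 ± 0.22 (SE, n = 5 mice per genotype), 2.01-fold on this scale, with a 95% interval of 0.54 to 1.48 (limma, adjusted p = 0.00704). The exact two-sided permutation test of this gene gave p = 0.00794, which is the lowest value possible with 5 against 5 mice. The rise passed the test in all 18 refits with other settings or without 1 mouse, with differences of 0.67 to 1.17.

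Lmod3 (ENSMUSG00000044086, chr6:97238534-97252759, minus strand) encodes the leiomodin of skeletal muscle. Its rlog values were 12.70, 12.56, 12.51, 12.59 and 12.63 in knock-out mice 1 to 5 and 12.35, 12.51, 12.29, 12.38 and 12.31 in wild-type mice 1 to 5. The knock-out mice were on the high side and 4 of them lay above all wild-type mice, while the lowest knock-out mouse lay just under the highest wild-type mouse. The log2 difference was 0.23 ± 0.08 (SE, n = 5), with a 95% interval of 0.05 to 0.40, and it missed the threshold (limma, adjusted p = 0.0851), although the exact permutation test of this gene alone gave p = 0.0159. It passed in 2 of the 18 refits, with quantile normalization (adjusted p = 0.0371) and with sample weights (adjusted p = 0.0254).

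Within each mouse, the log2 ratio of Lmod2 to Lmod3, from which any factor common to a whole library cancels, averaged 1.34 ± 0.20 (SD, n = 5) in knock-out and 0.55 ± 0.54 in wild-type muscles. The difference of the ratios was 0.78 (exact two-sided permutation test, p = 0.0159, adjusted p = 0.0265 over the 5 ratios compared here). The genotypes overlapped, since wild-type mouse 1, at 1.23, lay above knock-out mouse 1, at 1.02. This call was lost when knock-out mouse 2, 3 or 5 or wild-type mouse 3 or 4 was left out (adjusted p = 0.0529 in each of these exact permutation tests, with differences of 0.60 to 0.79).

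Klhl41 (ENSMUSG00000075307, chr2:69670120-69684230, plus strand) encodes a kelch protein of the sarcomere and the sarcoplasmic reticulum. In knock-out mice 1 to 5 the rlog values were 15.23, 15.23, 15.15, 15.13 and 15.10, and in wild-type mice 1 to 5 they were 14.79, 14.80, 14.74, 14.57 and 14.40. The genotypes were separate, with a gap between the lowest knock-out mouse and the highest wild-type mouse that was wider than the whole range of the knock-out mice. Klhl41 rose by 0.51 ± 0.11 on the log2 scale (SE, n = 5), 1.42-fold, with a 95% interval of 0.28 to 0.74 (limma, adjusted p = 0.00579). The exact permutation test gave p = 0.00794. The rise passed in all 18 refits, with differences of 0.42 to 0.63.

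Klhl40 (ENSMUSG00000074001, chr9:121777607-121783818, plus strand) encodes the closest relative of Klhl41 among the genes described here. Its rlog values were 13.24, 13.04, 13.08, 13.36 and 13.16 in knock-out mice 1 to 5 and 13.27, 12.94, 13.56, 12.99 and 12.51 in wild-type mice 1 to 5. The knock-out values lay inside the range of the wild-type values, whose ends were wild-type mouse 5 at the bottom and wild-type mouse 3 at the top. The log2 difference was 0.12 ± 0.16 (SE, n = 5; limma, adjusted p = 0.653), and its 95% interval of -0.22 to 0.47 leaves room for changes in either direction. Without wild-type mouse 3 it was 0.25 (limma, adjusted p = 0.207), and without wild-type mouse 5 it was -0.012. The transcript Gm47108 overlaps the start of the gene on the opposite strand, and the strand setting of the authors' read counting is not given in the sources used here, so reads of the pair might be mixed.

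The log2 ratio of Klhl40 to Klhl41 averaged -1.99 ± 0.16 (SD, n = 5) in knock-out and -1.60 ± 0.29 in wild-type muscles, a difference of -0.38 (exact permutation test, p = 0.0317, adjusted p = 0.0397 over the 5 ratios). The ranges overlapped. Leaving out knock-out mouse 1, 2, 3 or 5 or wild-type mouse 1, 3 or 4 lost the call (exact permutation tests, adjusted p = 0.0595 to 0.0794), and without wild-type mouse 3 the difference was -0.28.

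**Figure D2:**
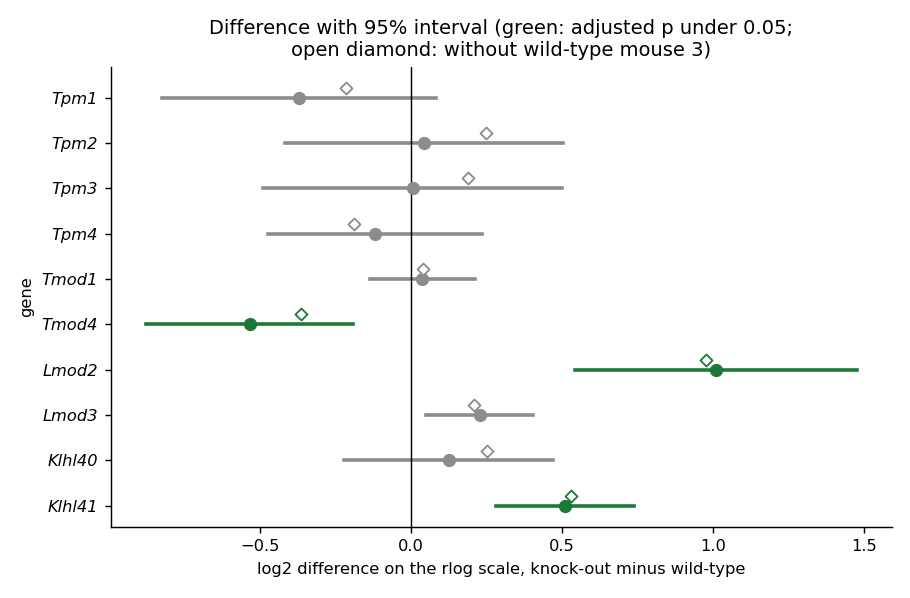
The horizontal axis is the log2 difference on the rlog scale (knock-out minus wild-type mean, n = 5 mice per genotype) of each gene, with its 95% interval from limma as a line, green where the adjusted p was under 0.05; open diamonds give the difference without wild-type mouse 3. Lmod2 and Klhl41 lie to the right of 0 and Tmod4 to the left, and leaving out mouse 3 shifts Tpm1, Tpm2, Tpm3, Tmod4 and Klhl40 to the right.

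Tmod4 (ENSMUSG00000005628, chr3:95124476-95129209, plus strand) encodes a tropomodulin found mostly in skeletal muscle. In knock-out mice 1 to 5 the rlog values were 14.22, 14.19, 14.27, 14.33 and 14.28, and in wild-type mice 1 to 5 they were 14.68, 14.53, 15.47, 14.74 and 14.54. Every knock-out mouse lay below every wild-type mouse, and wild-type mouse 3 was far above the rest. This was a log2 difference of -0.53 ± 0.16 (SE, n = 5), 0.691 times the wild-type level, with a 95% interval of -0.88 to -0.19 (limma, adjusted p = 0.0404; exact permutation test, p = 0.00794). Without wild-type mouse 3 the difference was -0.36, with a smaller error (limma, adjusted p = 0.00369). The call was lost when any 1 knock-out mouse, wild-type mouse 1 or wild-type mouse 4 was left out (limma, adjusted p = 0.0501 to 0.0962, differences of -0.52 to -0.56), or when weakly expressed genes were included (adjusted p = 0.103), and it held in 10 of the 18 refits, all of which gave a lower knock-out mean.

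Tmod1 (ENSMUSG00000028328, chr4:46038935-46116032, plus strand) encodes the tropomodulin of red cells, heart and skeletal muscle. Knock-out mice 1 to 5 had rlog values of 13.77, 13.65, 13.65, 13.72 and 13.69, and wild-type mice 1 to 5 had 13.69, 13.72, 13.66, 13.64 and 13.57. All 10 mice lay close together, between 13.57 and 13.77, and the genotypes overlapped almost fully. The log2 difference was 0.04 ± 0.08 (SE, n = 5; limma, adjusted p = 0.796), with a 95% interval of -0.14 to 0.21, so a change as large as that of Tmod4 lies outside the interval. The end of the gene overlaps Tstd2, which lies on the opposite strand.

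Within each mouse, the log2 ratio of Tmod1 to Tmod4 averaged -0.56 ± 0.07 (SD, n = 5) in knock-out and -1.14 ± 0.39 in wild-type muscles. Every knock-out mouse, at -0.63 to -0.45, lay above every wild-type mouse, at -1.81 to -0.81. The difference was 0.57 (exact permutation test, p = 0.00794, adjusted p = 0.0198 over the 5 ratios), and 0.40 to 0.65 with any 1 mouse left out. Separate genotypes give this test its lowest possible p whichever mouse is left out, so its passes there were fixed in advance. The balance of the pair thus moved toward Tmod1, although per length Tmod4 stayed above Tmod1 in both genotypes.

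**Figure D3:**
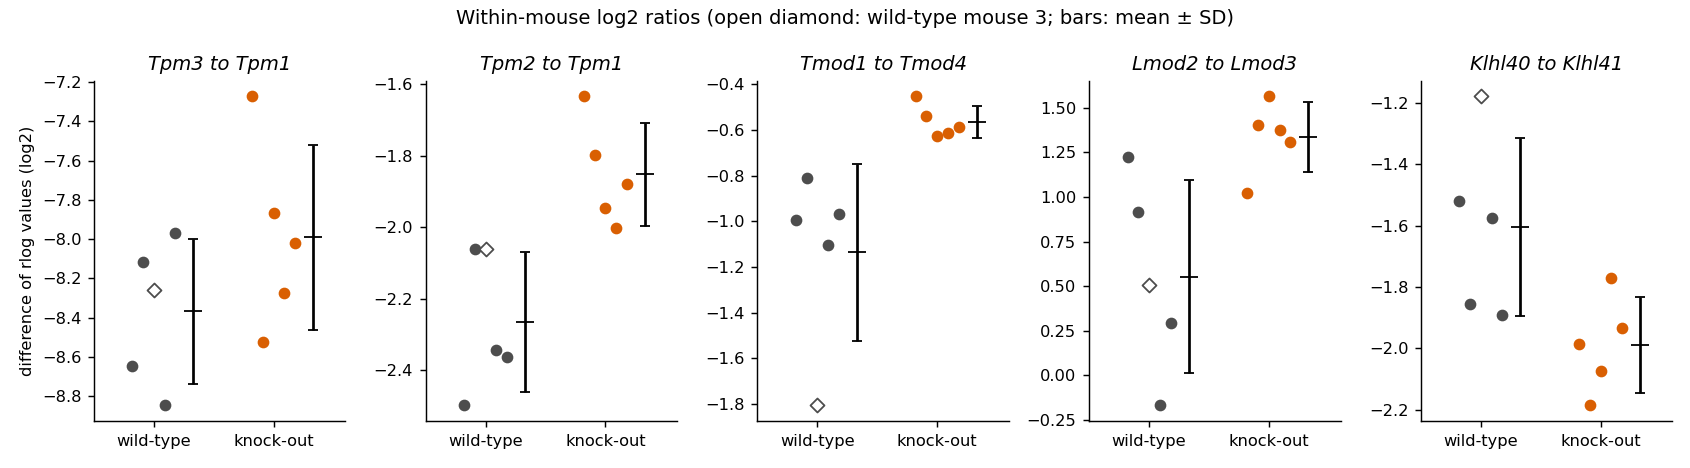
Each panel plots the difference of 2 rlog values within a mouse (a log2 ratio, each with its own axis) in the 5 wild-type mice (grey, mouse 3 as an open diamond) and the 5 desmin knock-out mice (orange), with the mean ± SD as a bar. The genotypes are separate for Tpm2 to Tpm1 and for Tmod1 to Tmod4 and overlap for the other ratios.

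The tropomyosin genes did not pass the test in any of the 18 refits. Tpm1 (ENSMUSG00000032366, chr9:67022590-67049406, minus strand) encodes alpha-tropomyosin, the main form of fast fibers and heart. Its rlog values were 19.52, 19.77, 19.66, 19.58 and 19.58 in knock-out mice 1 to 5 and 19.87, 19.73, 20.62, 20.01 and 19.75 in wild-type mice 1 to 5. Of the knock-out mice, 4 lay below all wild-type mice, and wild-type mouse 3 was the highest by a wide margin. The log2 difference was -0.37 ± 0.21 (SE, n = 5), with a 95% interval of -0.82 to 0.08 (limma, adjusted p = 0.276), while the exact permutation test of this gene alone gave p = 0.0238. Without wild-type mouse 3 it was -0.21 (limma, adjusted p = 0.339), and with quantile normalization the sign turned, to 0.033.

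Tpm2 (ENSMUSG00000028464, chr4:43514711-43523765, minus strand) encodes beta-tropomyosin, which pairs with the alpha form in striated muscle. In knock-out mice 1 to 5 the rlog values were 17.88, 17.98, 17.71, 17.58 and 17.70, and in wild-type mice 1 to 5 they were 17.37, 17.66, 18.56, 17.67 and 17.38. Wild-type mouse 3 was above all other mice of both genotypes, and the other wild-type mice lay below the middle of the knock-out mice. Tpm2 had a log2 difference of 0.04 ± 0.21 (SE, n = 5; limma, adjusted p = 0.917; 95% interval -0.42 to 0.50), and without wild-type mouse 3 it was 0.25 (adjusted p = 0.188).

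Both genes were highest in wild-type mouse 3, where their ratio was level with that of wild-type mouse 2. The log2 ratio of Tpm2 to Tpm1 was -1.63, -1.80, -1.95, -2.003 and -1.88 in knock-out mice 1 to 5 and -2.50, -2.06, -2.06, -2.34 and -2.36 in wild-type mice 1 to 5. All knock-out mice lay above all wild-type mice, so relative to Tpm1 there was more Tpm2 in the knock-out muscles. The difference was 0.41, 1.33-fold (exact permutation test, p = 0.00794, adjusted p = 0.0198 over the 5 ratios), and 0.36 to 0.46 with any 1 mouse left out. As the genotypes were separate, the test had to give its lowest possible p whichever mouse was left out, so its passes there were fixed in advance. With quantile normalization the difference was only 0.22, at the edge of the threshold (exact permutation test, adjusted p = 0.0496). The ratio does not say which of the pair changed.

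Tpm3 (ENSMUSG00000027940, chr3:90072649-90100902, plus strand) encodes the alpha-tropomyosin of slow fibers and, from another start, forms found in other cells. Knock-out mice 1 to 5 had rlog values of 12.25, 11.25, 11.79, 11.31 and 11.57, and wild-type mice 1 to 5 had 11.22, 11.61, 12.36, 11.16 and 11.78. The mice of both genotypes were widely spread and mixed, with knock-out mouse 1 and wild-type mouse 3 highest. The log2 difference was 0.0056 ± 0.23 (SE, n = 5; limma, adjusted p = 0.991; 95% interval -0.49 to 0.50), and the log2 ratio of Tpm3 to Tpm1 differed by 0.38 between the genotypes with wide overlap (exact permutation test, p = 0.206, adjusted p = 0.206 over the 5 ratios). Without wild-type mouse 3 the log2 difference of Tpm3 was 0.19 (limma, adjusted p = 0.563), without knock-out mouse 1 it was -0.15, and with quantile normalization the difference of the ratio was 0.042. Tpm3-rs7, a retrogene of Tpm3 with which reads might be shared, was far lower, at 3.88 to 4.96 in the 10 mice, with a log2 difference of -0.14 (limma, adjusted p = 0.673). Myh7, the slow myosin heavy chain, was likewise spread, at 10.48 to 12.50 in the knock-out and 10.78 to 11.81 in the wild-type mice, and knock-out mouse 1 was again the highest. Of the 12 slow fiber genes listed below, however, 6 rose and 1 fell (median log2 difference 0.69), so Myh7 does not stand for them.

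Tpm4 (ENSMUSG00000031799, chr8:72134975-72153142, plus strand) encodes a tropomyosin of the cytoskeleton outside the sarcomere. In knock-out mice 1 to 5 the rlog values were 10.29, 10.13, 9.74, 10.42 and 10.42, and in wild-type mice 1 to 5 they were 10.56, 10.40, 10.04, 9.93 and 10.66. The ranges overlapped, and wild-type mouse 3 was here among the lower mice. Tpm4 had a log2 difference of -0.12 ± 0.16 (SE, n = 5; limma, adjusted p = 0.675; 95% interval -0.47 to 0.23). It was -0.19 without wild-type mouse 3 and ranged from -0.22 without wild-type mouse 4 to -0.0036 without knock-out mouse 3. The transcripts Gm26586 and Gm16091 overlap it on the opposite strand.

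The 10 genes spanned a wide range of levels. For a comparison between genes, log2 of the exon length in kb was subtracted from the rlog values, with exon length taken as the union of all annotated exons. On this per-length scale the wild-type mean levels ran from Tpm1 at 17.30 ± 0.37 (SD, n = 5) and Tpm2 at 16.19 ± 0.48 through Tmod4 at 14.01 ± 0.39, Klhl41 at 13.32 ± 0.17, Lmod2 at 11.94 ± 0.57, Klhl40 at 11.73 ± 0.39, Tmod1 at 11.68 ± 0.05 and Lmod3 at 11.22 ± 0.09 to Tpm4 at 9.18 ± 0.32 and Tpm3 at 9.02 ± 0.48. Tpm1 and Tpm2 were thus far above Tpm3 and Tpm4, with all transcripts of a gene counted together. Neighbours in this order whose wild-type values overlapped were Lmod2 with Klhl40, Klhl40 with Tmod1, and Tpm4 with Tpm3, and the ranges of all other neighbours were separate.

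In the knock-out muscles the order of the per-length levels was the same except that Klhl41, at 13.83 ± 0.06, stood above Tmod4, at 13.48 ± 0.06, in all 5 mice. Lmod2, at 12.95 ± 0.13, was separate from Klhl40, at 11.85 ± 0.13, where the same pair overlapped in the wild-type muscles. The exchange of Klhl41 and Tmod4 depends on the length used. With the longest transcript of each gene in place of the exon union, Tmod4 was at 13.92 and Klhl41 at 13.83 in the knock-out muscles. Other places in the order depend on it too. In the wild-type muscles the longest transcript put Tpm3 (10.38) above Tpm4 (9.23). It also put Tmod1 (12.00) above Lmod2 (11.94) and Klhl40 (11.81). The values of the knock-out mice were less spread than those of the wild-type mice for all 10 genes, and the wild-type SD was over 3 times larger for 5 of them. Closer knock-out values were also a trait of the whole table. Over all tested genes, the mean correlation of a mouse with others of its genotype was 0.9955 to 0.9969 in knock-out mice. In wild-type mice it was 0.982 to 0.991. The share of all tested genes with a larger wild-type SD was not counted. Without wild-type mouse 3 the wild-type SD was larger for 9 of the 10 genes, with Tpm3 turned (0.298 in wild-type and 0.406 in knock-out mice), and over 3 times larger only for Lmod2 (0.657 and 0.127) and Klhl41 (0.193 and 0.058).

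**Figure D4:**
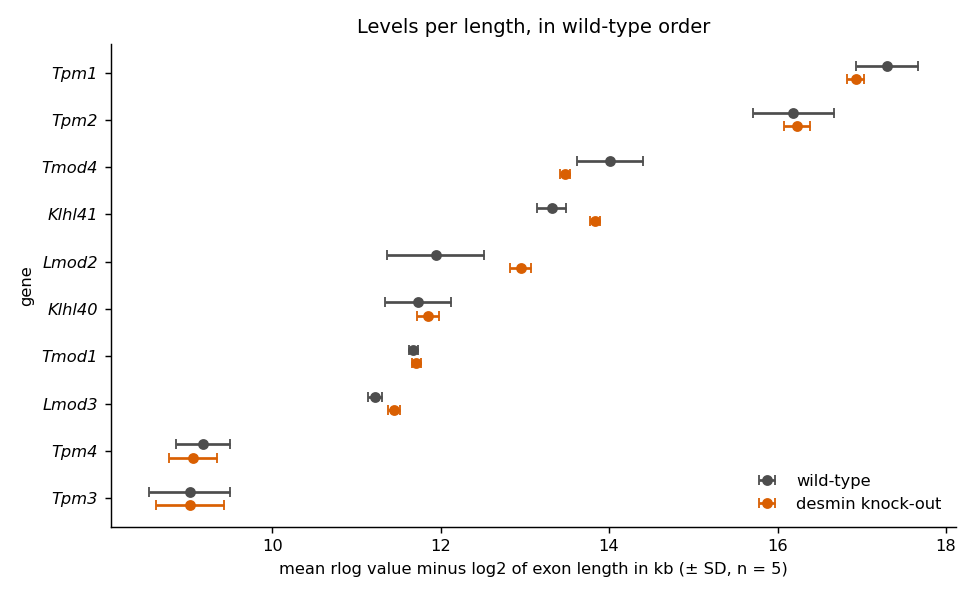
The horizontal axis is the mean rlog value minus log2 of the exon length in kb, with the SD over 5 mice as a bar, for the wild-type (grey) and the desmin knock-out (orange) muscles, with genes in wild-type order. Tpm1 and Tpm2 are highest and Tpm4 and Tpm3 lowest in both genotypes, and Klhl41 and Tmod4 trade places.

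The genes whose pattern over the 10 mice was most like that of Klhl41, by the root mean square difference of rlog values after each gene was centred on its wild-type mean, were Pon2 (0.0915), Micu2 (0.0989), a regulator of mitochondrial calcium uptake, and Ube2g2 (0.0999), a ubiquitin-conjugating enzyme. Those most like Lmod2 were Lrrn1 (0.236), Enah (0.237), an actin regulator that promotes filament elongation, and Lgals3 (0.251), the gene of galectin-3. These distances are descriptions over 10 mice.

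Other proteins of the thin filament and its ends were looked at as a list of 23 genes, all of them tested. The shares of all tested genes to set beside this and the later lists are 13.7% in either direction, 7.70% upward and 5.99% downward. No list was tested against them. Of the 23 genes, 3 rose, 3 fell and 17 did not pass the test, with a median log2 difference of 0.0030. The genes that rose were Tnnt1 (1.70 ± 0.20, SE, limma, adjusted p = 8.5e-05) and Tnni1 (0.91), the slow troponin T and I, and Tnnt2 (1.32), the troponin T of heart and developing muscle. Those that fell were Lmod1 (-1.12), the leiomodin of smooth muscle, Actc1 (-0.83), cardiac alpha-actin, and Capzb (-0.34), the beta subunit of the protein that caps the other, barbed end. Lmod1 thus moved opposite to Lmod2, with 7.08 to 7.80 in the knock-out and 7.95 to 9.44 in the wild-type mice and no overlap. The count rose to 10 of 23 with sample weights and with removal of GC and length trends. Over all tested genes the number that passed also rose, from 1956 to 4220 with sample weights and to 2532 with the trends removed.

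Kelch proteins of muscle and parts of the CUL3 ligase formed a list of 16 genes, of which 2 rose, 4 fell and 10 did not pass the test, with a median log2 difference of -0.06. Klhl13 (0.81 ± 0.13, SE, limma, adjusted p = 9.6e-04) and Klhl30 (0.59) rose with Klhl41, while Kbtbd12 (-0.41), Klhl21 (-0.41), Klhl22 (-0.37) and Kbtbd13 (-0.43), another nemaline myopathy gene, fell. Changes of the kelch genes thus ran in both directions. The count rose to 10 of 16 with sample weights, where the number over all 14289 tested genes also rose, from 1956 to 4220.

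Genes of fiber types and stages moved beside the 10 genes, and their part in the differences was not tested. Of 12 slow fiber genes 6 rose and 1 fell (median log2 difference 0.69), led by Csrp3 (1.49), Tnnt1 (1.70) and Ankrd2 (0.96), while Myl3 (-0.998) fell and Myh7 had a difference of -0.05. The summed level of the slow list, as log2, was 16.36 to 16.63 in knock-out and 15.31 to 16.33 in wild-type mice. Csrp3, Myoz2 and Ankrd2 weigh most in the knock-out sum, with knock-out means of 14.34, 13.97 and 13.70. Besides Myh7, the slow genes Myl2 (0.13), Atp2a2 (0.28), Myh7b (0.13) and Tnnc1 (0.53) did not pass the test. Of 13 fast fiber genes 3 fell, Mybpc2 (-1.05), Actn3 (-0.97) and Myh4 (-0.71), and Myh2 (0.77), the myosin of fast oxidative fibers, rose, with a median of -0.41, and the summed level was 22.14 to 22.38 in knock-out and 22.41 to 23.31 in wild-type mice. The fast count was 2 without any 1 of the knock-out mice and 1 without the limit on expression. Of 10 genes of regenerating or developing fibers 7 rose and 2 fell (median 1.27). Myh3 (2.25), Mymk (1.93) and Mymx (1.35) led the rises, while Myod1 (-0.47) and Actc1 fell. The summed level of the list overlapped, at 12.34 to 13.01 in knock-out and 12.08 to 13.09 in wild-type mice. Actc1 weighs most in this sum, as the highest gene of the list in both genotypes (means of 11.20 in knock-out and 12.03 in wild-type mice). Several genes stand in more than 1 list.

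Of 10 genes common to mature fibers 1, Actn2 (0.83), rose (median -0.0089), and 4 passed without wild-type mouse 3. The summed level of these genes was 21.37 to 21.46 in knock-out and 21.44 to 22.37 in wild-type mice, and these high values fit the muscle label. In bulk muscle, fewer cells or fibers of a type and less RNA per cell cannot be told apart.

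Among markers of other cells, 4 of 8 fibroblast genes rose, led by Col1a2 (0.64), Lum (0.99) and Col1a1 (0.50), with summed levels of 13.94 to 14.54 in knock-out and 13.52 to 14.43 in wild-type mice. That count was 2 without knock-out mouse 1, 2, 4 or 5 or wild-type mouse 2 or 4. Of 8 endothelial genes 5 fell, led by Vwf (-0.62), Cdh5 (-0.52) and Pecam1 (-0.49), with summed levels of 11.87 to 12.31 in knock-out and 12.33 to 12.75 in wild-type mice, and 3 passed without any 1 of the knock-out mice or without wild-type mouse 2. None of 8 macrophage genes passed (limma; none had an unadjusted p under 0.05 either), at summed levels of 10.87 to 11.33 and 10.53 to 11.20. Of the 7 tested of 8 smooth muscle genes, Lmod1 fell and the other 6 did not pass, with summed levels of 14.92 to 15.22 in knock-out and 14.76 to 15.51 in wild-type mice, and without wild-type mouse 3 the count was 2. Of the 5 tested of 9 erythroid genes, Alas2, which makes the first enzyme of heme synthesis, and Hbb-bs (-0.74) fell, with summed levels of 11.49 to 12.09 and 12.00 to 13.37, and 1 passed without knock-out mouse 1, 3 or 4.

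Lmod2, Tnnt2 and Actc1 are also genes of the heart. Of 7 cardiomyocyte genes 3 were tested and 2 rose, Myl4 (1.31) and Tnni3 (0.52), with a median log2 difference of 0.52, while the defining markers Nppa, Nppb and Myl7 were at or near 0 in all mice and Tnni3, the cardiac troponin I, was low, with means of 3.71 in knock-out and 3.19 in wild-type muscles. The summed level of the list, nearly all of it Myl4, which developing skeletal muscle also expresses, was 9.64 to 9.92 in knock-out and 7.90 to 9.08 in wild-type mice.

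**Figure D5:**
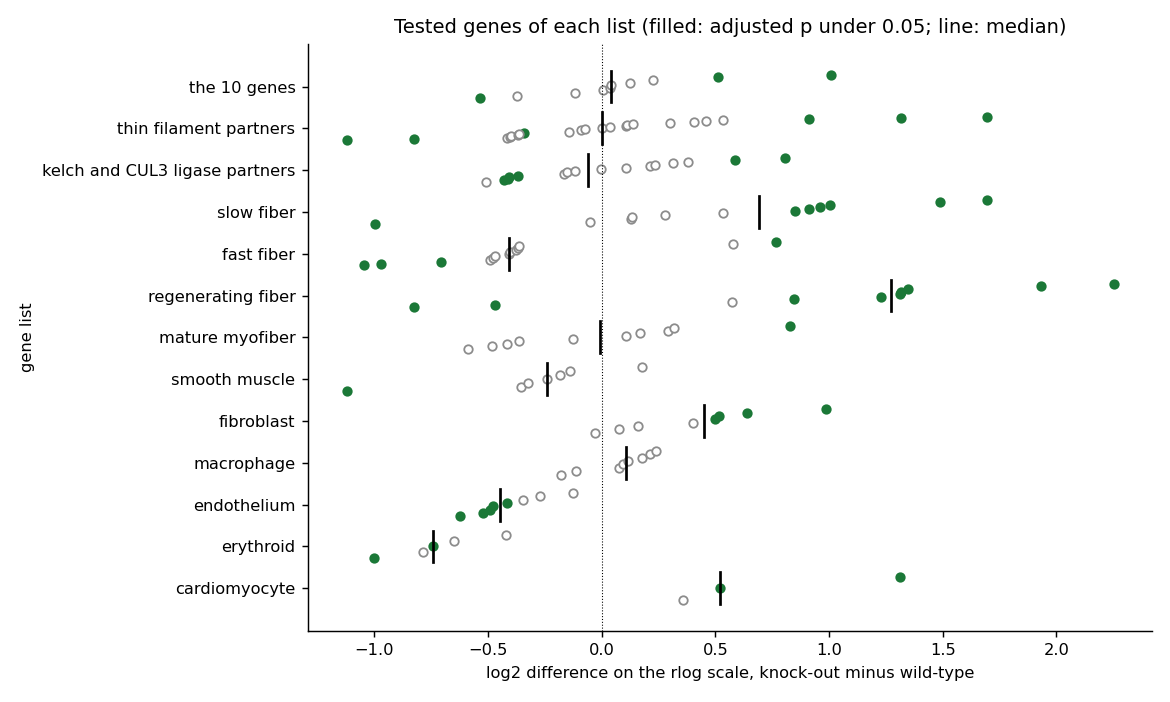
Each row plots the tested genes of a list by their log2 difference on the rlog scale (knock-out minus wild-type), filled green where the adjusted p was under 0.05, with the list's median as a black line. The 10 genes and their thin filament and kelch partners spread to both sides of 0 with medians near 0, while the slow, regenerating and fibroblast lists lie mostly to the right and the fast and endothelial lists mostly to the left.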

How the data were processed

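RNA sequencing was analysed for 10 gastrocnemius samples, 5 of each genotype. Per the labels and the submitters' processing notes, stranded mRNA libraries were trimmed with cutadapt 2.5, aligned to GRCm38 with STAR 2.5.4a, counted per gene with featureCounts (Subread 1.6.1) and transformed with DESeq2. The deposited table holds rlog values on a log2 scale, scaled and shrunken by the authors, so no counts or depths were used and the precision that depth gives is unknown.

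From these values, the genotypes were compared two-sided with limma 3.58.1 under R 4.3.3 (lmFit, then eBayes with trend=TRUE) over the 14289 genes averaging log2(10) or more, out of 54232 with 26079 at 0 in every mouse. Single genes and within-mouse log2 ratios were compared by exact permutation tests in scipy 1.17.1. Symbols, positions and exon lengths came from GENCODE M21 (GRCm38), which matched 54165 genes, and promoter windows from RefSeq GRCm38.p6. The fit was tested on simulated data. The labels name each sample as 1 mouse, and p-values are read here as measuring the spread between these mice. If the columns came from pooled RNA, as the study's methods can be read, the p-values would measure technical spread instead.

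The 10 genes and all gene lists were chosen with earlier results of these data known. Genes named were the 10, Des, in each list up to 3 called genes ranked by adjusted p, the 3 genes nearest to each of Klhl41 and Lmod2, and genes of a cell type list set beside a gene. Tpm3-rs7, Capzb, Klhl30, Klhl22 and Kbtbd13 were named after their values were seen. From the cardiomyocyte list, 1 gene was left out and is not reported here. Alternatives were quantile normalization, median centring, removal of GC and length trends, sample weights, a prior variance without trend, the replicate number as a block, omission of any 1 mouse, no expression limit or a stricter limit of log2(50), a threshold of 0.01 and, for levels, the longest transcript.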

Additional observations from a re-analysis of the deposited data

Results flagged for a closer look

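Wild-type mouse 3 lay far from the other 4 wild-type mice for 3 results, by Dixon's test of the gap to the nearest mouse against the range of the group. Its rlog value was 18.56 for Tpm2, where the next mouse was at 17.67, 15.47 for Tmod4, where the next was at 14.74, and 17.74 for Des, where the next was at 16.55. Values of 32 groups of 5 mice were looked at, of which chance would give 1.6 such gaps. Without this mouse the log2 differences were 0.25 for Tpm2, -0.36 for Tmod4 and -4.44 for Des.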

How the results depend on the processing

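The rises of Lmod2 and Klhl41 and the fall of Des kept their direction and passed the test under every alternative run. The number of the 10 genes that passed was 2 to 4, and 2 to 3 with 1 mouse left out. Over all tested genes 1956 passed, 1400 to 2496 with 1 mouse left out, the most without wild-type mouse 3, 4220 with sample weights and 994 at an adjusted p under 0.01. Higher genes outnumbered lower ones as reported (1100 and 856), but not with median centring (942 and 979) or sample weights (2093 and 2127), and with GC and length trends removed the numbers were 1273 and 1259. Of the distinct genes of the lists 41 passed, 30 to 49 with 1 mouse left out, 27 with no expression limit, 63 with sample weights and 20 at an adjusted p under 0.01. Over all alternatives the counts were 3 to 10 for the thin filament partners (6 as reported), 3 to 10 for the kelch and CUL3 partners (6), 4 to 9 for slow (7), 1 to 7 for fast (4) and 6 to 10 for regenerating fibers (9), 1 to 4 for mature fibers (1), 1 to 5 for smooth muscle (1), 2 to 4 for fibroblasts (4), 0 for macrophages (0), 2 to 5 for endothelium (5), 0 to 4 for erythroid cells (2) and 1 to 2 for cardiomyocytes (2).

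Signs turned only for log2 differences that did not pass the test. Tpm1 was 0.033 with quantile normalization, Tpm3 -0.037 and Tmod1 -0.0045 with median centring, and with 1 mouse left out Tpm2 ranged from -0.046 to 0.25, Tpm3 from -0.15 to 0.19 and Klhl40 from -0.012 to 0.25. Tpm4 kept its sign, at -0.22 to -0.0036. The cause was not tested. Median centring moved the median of all tested genes from -0.0029 to -0.045. With GC and length trends removed, the Klhl40 to Klhl41 ratio no longer passed (-0.23, exact permutation test, adjusted p = 0.159). With quantile normalization the difference of the Tpm2 to Tpm1 ratio was 0.22 and that of Tpm3 to Tpm1 0.042. With 1 mouse left out, the ratio of Lmod2 to Lmod3 differed by 0.60 to 0.95 (exact permutation tests, adjusted p = 0.0265 to 0.0529) and that of Klhl40 to Klhl41 by -0.46 to -0.28 (adjusted p = 0.0265 to 0.0794).

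Replicate numbers did not pair the mice: the correlations of the deviations of same-numbered mice were -0.219 to 0.0673, and no knock-out mouse correlated best with its own number. With the number as a block in limma, 1579 genes passed, the endothelial count was 3, and no call of the 10 genes changed. With this pairing, 4 of the 5 ratio differences, 0.41 for Tpm2 to Tpm1, 0.57 for Tmod1 to Tmod4, 0.78 for Lmod2 to Lmod3 and -0.38 for Klhl40 to Klhl41, had adjusted p of 0.104, 0.104, 0.156 and 0.104 in exact sign-flip permutation tests, whose smallest p with 5 pairs is 0.0625, so no ratio could pass. For the levels per length, the longest transcript in place of the exon union raised the wild-type level of Tpm1 to 18.46, Tmod4 to 14.46, Tmod1 to 12.00 and Tpm3 to 10.38. The depth of the libraries is unknown and rlog shrinkage cannot be undone.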
